A study of Mus musculus with 9 samples.

Results

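The glutathione peroxidases are 8 mouse genes, Gpx1 to Gpx8, chosen as a family from an earlier look at these arrays, in which the Gpx3 signal was lower in ventricles without estrogen-related receptor gamma (ERRγ) than in wild-type ventricles. The KO minus WT values of the family are therefore a description, and no call or p-value of that comparison is used as support. Every probe set that the platform annotation gives one of these symbols was taken. This gave 9 of 45101 probe sets, 2 for Gpx4 and 1 for each other gene, and the 8 genes stand among 18193 on the array. No probe set lists a member together with another gene.

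Total RNA came from cardiac ventricles of male mouse fetuses at stage E18.5, shortly before birth, collected by caesarean section, and was hybridised to 9 Affymetrix expression arrays. The 3 genotypes differed in the ERRγ gene Esrrg, which was intact on both copies in WT (+/+), lost on 1 copy in HET (+/-) and lost on both in KO (-/-), with 3 arrays each, labelled as biological replicates. The labels give 3 ventricles per source without saying whether these were pooled on 1 array, so the tests measure only the spread between these arrays. The sources used here do not say how the gene was disrupted, in which cells or on which strain, and name no treatment. The values are MAS5 signals, a linear brightness per probe set, and the number of arrays limits their precision.

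Glutathione peroxidases such as Gpx1 and Gpx4 reduce hydrogen peroxide and lipid hydroperoxides at the expense of glutathione, which glutathione reductase then restores with NADPH. In several members the reactive residue is selenocysteine, which makes their synthesis depend on selenium supply. Gpx1 works in the cytosol and mitochondria, Gpx4 reduces phospholipid hydroperoxides inside membranes and is known as a guard against ferroptosis, Gpx7 and Gpx8 reside in the endoplasmic reticulum, and Gpx3 is secreted and is the main form in plasma. Gpx2 is best known from the gut lining, Gpx5 from the epididymis and Gpx6 from the olfactory epithelium. ERRγ is a nuclear receptor that binds an extended half-site in DNA and is known in heart for its place at genes of mitochondrial energy metabolism.

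The upstream sequences of the family were searched for that half-site, AAGGTCA, and its longer form TNAAGGTCA, on both strands. Any match to the longer form also contains the shorter one. The windows were the 250 bases before each start site in RefSeq's promoters of GRCm38.p6, with 11 windows for the 8 genes. Gpx3, the member with the clearest difference, has a single window, chr11:54902604-54902853 on the plus strand, printed here because the results turn on this gene. It holds neither form, and so no capitals.
Gpx3: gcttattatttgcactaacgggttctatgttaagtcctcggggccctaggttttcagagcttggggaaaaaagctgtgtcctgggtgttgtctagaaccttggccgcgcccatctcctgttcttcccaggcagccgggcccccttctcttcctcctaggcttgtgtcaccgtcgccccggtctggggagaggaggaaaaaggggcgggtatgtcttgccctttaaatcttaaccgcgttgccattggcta
The one match among the 11 windows lies upstream of Gpx2, shown with 60 bases at chr12:76795659-76795718 on the minus strand. Capitals mark the longer form, which reads on the opposite strand and runs from base -134 to -126 relative to the start site.
Gpx2: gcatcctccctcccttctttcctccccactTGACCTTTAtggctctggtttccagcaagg
Of all 32851 such windows, 4.08% hold AAGGTCA and 1.14% hold TNAAGGTCA. A match is a description of letters, and a window without one says nothing about where the receptor binds.

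Across the whole series, Esrrg followed the labels, with a HET mean of 69.7% and a KO mean of 22.2% of the WT mean in its brightest probe set. The arrays also parted in a control that is not genotype. In the log2 ratio of the bacterial spike-in probe sets thr and dap, values ran from -0.67 to -0.43 for WT and HET replicate 1, and from -1.09 to -0.89 for the other 5 arrays. This grouping is called the spike-in batch below. The first batch holds every WT array and the second every KO array, so values with the batch as a block rest on HET alone as the link between them. All 8 cardiomyocyte marker genes, the ventricular light chain gene Myl2 among them, were above the filter for dim genes.

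Gpx3 was graded by genotype. In WT its signals were 4879, 4634 and 4861. In HET they were 4362, 3935 and 4337, and in KO 3357, 3164 and 3172. All HET arrays lay under all WT arrays and above all KO arrays, so no pair of genotypes overlapped. The mean signal was 4791 ± 136 for WT, 4212 ± 240 for HET and 3231 ± 109 for KO (± SD, n = 3 each). HET thus stood at 87.9% and KO at 67.4% of the WT mean. Such a stepwise fall without overlap, from WT through HET to KO, occurred in 59 of 13028 genes tested, or 0.453%. A stepwise rise occurred in 37. Since Gpx3 was chosen for being lower in KO than in WT, this share is a description and no support. Neither HET minus WT nor KO minus HET was called for Gpx3 (below).

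**Figure D1:**
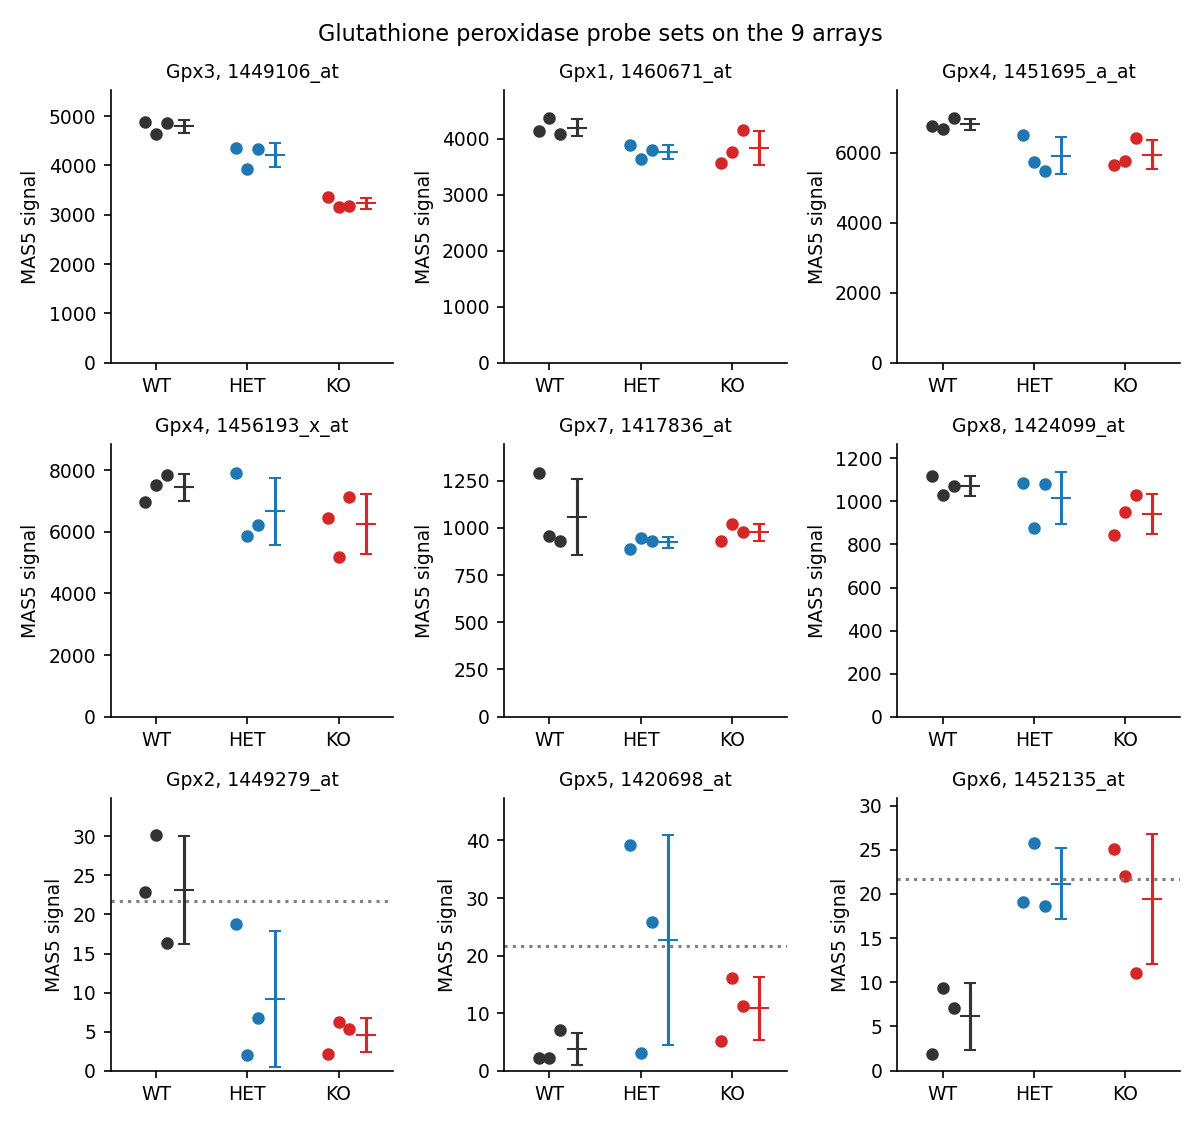
Signals of the 9 glutathione peroxidase probe sets (y axis, MAS5 signal from 0) in WT, HET and KO; points are single arrays, bars the mean ± SD of 3 arrays, and dotted lines the signal of 21.7 under which genes were left out as dim. Gpx3 steps down from 4791 to 4212 to 3231, while the Gpx2, Gpx5 and Gpx6 points lie between 1.94 and 39.2, around or under the dotted line.

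Gpx1, the cytosolic and mitochondrial enzyme, was not ordered in this way. Its signals were 4147, 4381 and 4082 in WT. They were 3883, 3637 and 3797 in HET, and 3574, 3772 and 4163 in KO. The HET arrays lay under the WT arrays, but the KO arrays spanned the range from below the lowest HET array into that of WT. The KO mean of 3836 ± 300 was 91.3% of WT and 102% of HET (SD, n = 3).

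Gpx4, which protects membranes from lipid peroxidation, is read by 2 probe sets. One is of the class marked _a_at, which detects several transcripts of one gene. It gave 6767, 6689 and 6997 in WT, then 6512, 5751 and 5494 in HET, and 5652, 5779 and 6431 in KO. WT lay above both other genotypes there, and HET and KO overlapped. The other is of the class marked _x_at, which can also pick up other sequences. It gave 6959, 7503 and 7853 for WT, then 7892, 5867 and 6228 for HET, and 6442, 5178 and 7114 for KO. The genotypes overlapped in this _x_at probe set, which was the brighter one and so stands for Gpx4 in the tests. In both probe sets HET replicate 1, the HET array of the first spike-in batch, was the highest HET array. In the _a_at probe set every array of the first batch lay above every array of the second. The part of the batch in this was not tested.

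The endoplasmic reticulum members showed no separation. Gpx7 signals were 1289, 957 and 930 for WT, then 890, 948 and 932 for HET, and 930, 1019 and 978 for KO. The WT mean of 1059 ± 200 is raised by WT replicate 1 alone, and the other 8 arrays lie between 890 and 1019. Gpx8 signals were 1118, 1028 and 1071 for WT, then 1085, 875 and 1083 for HET, and 843, 949 and 1029 for KO. Its KO mean was 87.7% and its HET mean 94.6% of WT, with the highest KO array just inside the WT range.

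Gpx2, Gpx5 and Gpx6 had mean log2 values under the filter and were not tested in the fit over genes. Their signals stayed between 1.94 and 39.2 on all arrays, and values this low are noisy in MAS5, which subtracts mismatch probes. Gpx2 signals were 22.9, 30.2 and 16.4 for WT, then 18.8, 1.97 and 6.71 for HET, and 2.17, 6.27 and 5.37 for KO. The 4 arrays of the first spike-in batch are the 4 highest of the 9 for Gpx2, and the part of the batch in this was not tested. Gpx6 read 1.94 to 9.38 in WT, 18.6 to 25.8 in HET and 11.1 to 25.1 in KO, so its WT arrays lay under all others. Gpx5 read 2.12 to 7.04 in WT, 3.10 to 39.2 in HET and 5.19 to 16.1 in KO, with overlap between all genotypes. When every probe set was fitted on its own, none of these genes passed between HET and WT or KO and HET (limma, adjusted p of 0.554 or above over 45037 probe sets).

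Differences were then set against the spread of the arrays with limma on log2(signal + 16), using the brightest probe set of each gene. This scale understates changes of dim genes. Of the 8 members, 5 had a mean above the filter, Gpx1, Gpx3, Gpx4, Gpx7 and Gpx8, and entered the fit.

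Between KO and WT, Gpx3 was lower by 0.57 ± 0.07 (log2 difference -0.57, limma SE), a KO level of 0.675 of WT on this scale. Since the family was taken up for this difference, the count of called members (1 of 5, Gpx3, beside 1.62% of all genes at a limma adjusted p under 0.05) restates that choice. The same holds for the count without overlap between KO and WT arrays, which in the probe sets tested was 1 of 5, beside 25.0% of all genes. Outside the tested probe sets, the _a_at probe set of Gpx4 and the dim Gpx2 and Gpx6 did not overlap either. The log2 differences of the others were -0.26 ± 0.11 for Gpx4, -0.19 ± 0.11 for Gpx8, -0.13 ± 0.07 for Gpx1 and -0.10 ± 0.11 for Gpx7. All 5 were below zero, with a median of -0.19, or -0.16 without Gpx3, against -0.01 over all genes. Of all genes 51.6% were below zero, and the median size of a difference, whatever its sign, was 0.177. Single arrays moved the smaller differences: Gpx4 was at -0.13 without KO replicate 2, Gpx1 at -0.08 and Gpx8 at -0.12 without KO replicate 1, and Gpx7 at 0.05 without WT replicate 1.

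**Figure D2:**
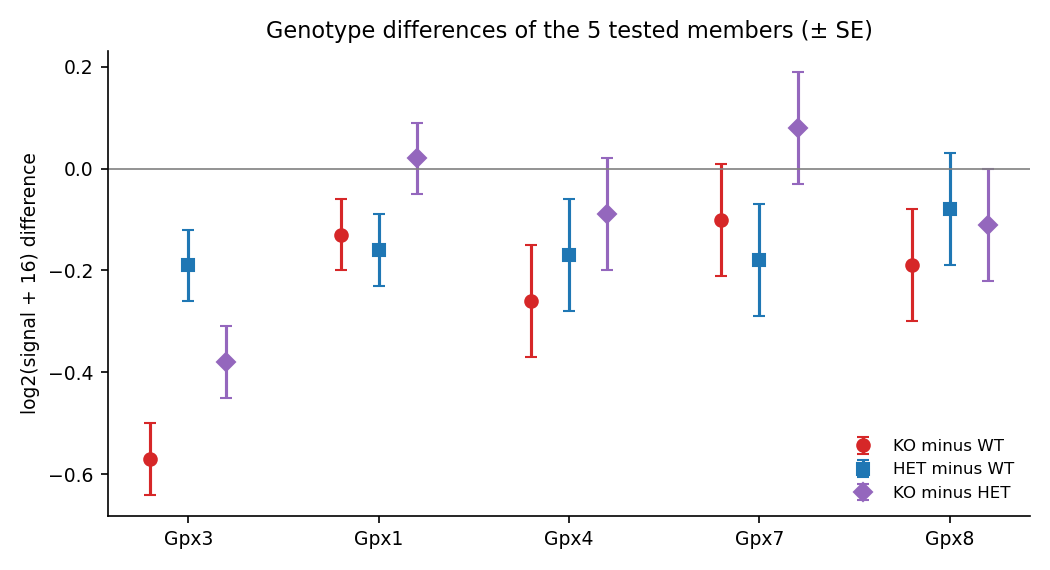
Log2(signal + 16) differences between genotypes (y axis) for the 5 tested glutathione peroxidases, with limma standard errors as bars and 1 symbol for each comparison. Gpx3 lies at -0.57 in KO minus WT and -0.38 in KO minus HET, while the other members stay between -0.26 and 0.08 in all comparisons.

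Loss of 1 Esrrg copy gave no call in the family. Gpx3 differed by -0.19 ± 0.07 between HET and WT (95% interval -0.33 to -0.04; limma, adjusted p = 0.344), and all 3 HET arrays were lower. That comparison shares the WT arrays on which Gpx3 was singled out, so its size is not independent of that choice. Gpx1 differed by -0.16 ± 0.07 (limma, adjusted p = 0.426), also with all 3 HET arrays lower. Gpx7 gave -0.18 ± 0.11, Gpx4 -0.17 ± 0.11 and Gpx8 -0.08 ± 0.11, with limma adjusted p from 0.575 to 0.803. In this comparison 0.00% of all genes were called by limma, while 1499 of 13028, or 11.5%, had an unadjusted p under 0.05. Of the 5 tested probe sets, 2 had HET and WT arrays that did not overlap, those of Gpx3 and Gpx1, beside 13.7% of all genes. The _a_at probe set of Gpx4 and the dim Gpx6 did not overlap either. Leaving out 1 array or blocking on batch moved the members unequally. Gpx3 ran from -0.21 to -0.14 without 1 array and was at -0.13 with the batch as a block. Gpx4 was at -0.30 without HET replicate 1, -0.08 without HET replicate 2 and 0.09 with the block, Gpx7 at -0.03 without WT replicate 1, and Gpx8 at 0.02 without HET replicate 2.

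Between KO and HET the Gpx3 difference was the largest in size of the 5, though not past the threshold over all genes. It was -0.38 ± 0.07 for Gpx3 (95% interval -0.52 to -0.24; limma, adjusted p = 0.11), with all 3 KO arrays below all HET arrays. That was 1 member of 5 without overlap, against 10.5% of all genes, and 0 of 5 called, against 0.0154% (2 genes). The other members were at 0.02 ± 0.07 for Gpx1, -0.09 ± 0.11 for Gpx4, 0.08 ± 0.11 for Gpx7 and -0.11 ± 0.11 for Gpx8 (limma, adjusted p = 0.989 for each). The 95% intervals were -0.13 to 0.17 for Gpx1, -0.16 to 0.32 for Gpx7, -0.33 to 0.15 for Gpx4 and -0.33 to 0.12 for Gpx8. Those of Gpx4 and Gpx8 overlapped that of Gpx3. KO against HET shares the KO arrays on which Gpx3 was singled out, so its size here is not independent of that choice.

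The HET level of Gpx3 was 0.10 ± 0.06 above the midpoint of WT and KO on the log2 scale (95% interval -0.03 to 0.22; limma, adjusted p = 0.983). A place halfway between the other genotypes is within that interval. HET minus WT made up 32.9% of the KO minus WT difference of Gpx3.

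Secreted Gpx3 was next set against each intracellular member within the same array, which removes a factor that is equal for both genes. Differences between the spike-in batches were unequal among the members (below) and stay in these ratios. The log2 ratio of Gpx3 to Gpx1, centred on its WT mean, was -0.11 to 0.06 in WT, -0.08 to 0.00 in HET and -0.58 to -0.28 in KO. The KO arrays lay below all others, while HET fell inside the WT range. Against Gpx7 the KO arrays read -0.34, -0.56 and -0.50, below all WT and HET arrays. Against Gpx8 they read -0.17, -0.42 and -0.53, with the highest of them next to the lowest HET array at -0.16. Against Gpx4 they read -0.31, -0.08 and -0.53, and these overlapped the HET arrays, the lowest of which was -0.22. The mean ratio in KO was lower than in WT by 0.43 against Gpx1 (log2 change -0.43), with -0.47 against Gpx7, -0.38 against Gpx8 and -0.30 against Gpx4. In HET the same changes were -0.03, -0.01, -0.10 and -0.02. These ratios describe unequal change and were given no test, since Gpx3 was singled out on these arrays.

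**Figure D3:**
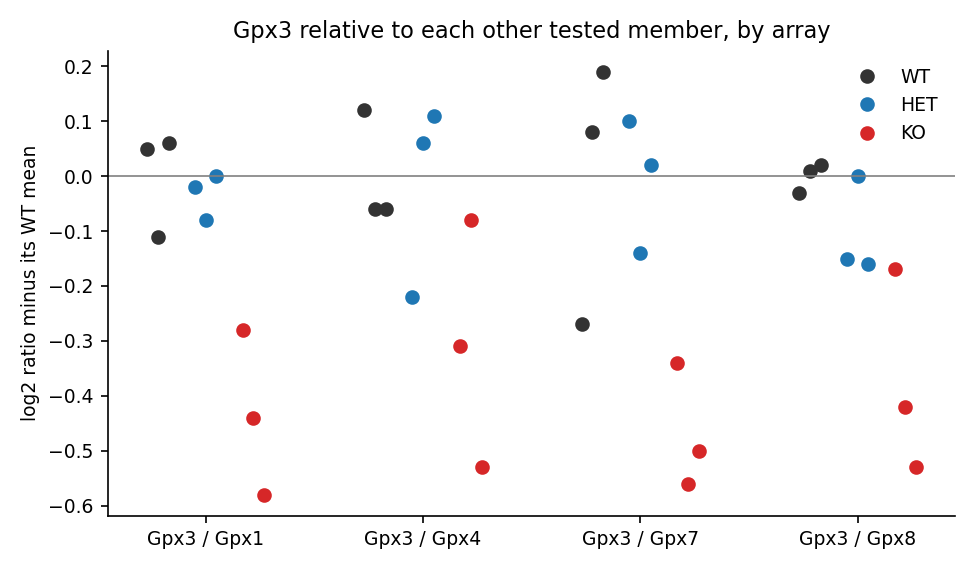
Log2 ratio of Gpx3 to each other tested member on the same array, minus the WT mean of that ratio (y axis), 1 point an array, coloured by genotype. KO points lie below the HET and WT points for Gpx1, Gpx7 and Gpx8 and overlap HET for Gpx4.

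The spike-in batch touched the members unequally. Between the HET arrays of the second batch and the one of the first, Gpx4 differed by -0.38, Gpx8 by -0.15, Gpx3 by -0.08, Gpx1 by -0.06 and Gpx7 by 0.08 (log2). With the batch as a block, KO minus WT was -0.49 ± 0.11 for Gpx3, -0.07 ± 0.12 for Gpx1, -0.04 ± 0.18 for Gpx8, -0.18 ± 0.20 for Gpx7 and 0.12 ± 0.16 for Gpx4. The Gpx4 difference thus turned its sign, and the Gpx3 difference stayed below zero but was no longer called. Within the second batch alone, KO minus HET was -0.35 for Gpx3 and -0.05 to 0.05 for the other 4. Within the first, HET replicate 1 minus WT was -0.13 for Gpx3.

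Marker genes of other cells were read on the same arrays. The summed signal of the 8 cardiomyocyte markers was 147580 to 156844 in WT, 134705 to 150249 in HET and 133705 to 144070 in KO, with 6 of 8 genes lower in KO and 0 called. That of 8 fibroblast markers was 34261 to 39112, 34215 to 39428 and 38776 to 40262, with 7 of 8 higher in KO and 1 called. Smooth muscle and pericyte markers (6) summed to 15052 to 17292 in WT and 16908 to 19453 in KO, with 4 of 6 higher in KO and 0 called. The 5 atrial markers summed to 30916 to 36423 and 33112 to 39390, with 3 higher in KO and 1 called. The 7 endothelial markers summed to 5296 to 5634 in WT and 4866 to 5292 in KO, with 5 of 7 lower in KO and 1 called. Epicardial (6 genes, 773 to 1194 and 737 to 1319), macrophage (8 genes, 1358 to 1519 and 1407 to 1635) and erythroid sums (4 of 8 genes on the array, 1153 to 1678 and 1305 to 1697) had 0 calls. The KO and WT ranges of the sums did not overlap for cardiomyocyte and endothelial markers, the latter only just (5292 in KO, 5296 in WT). Both sums also parted by spike-in batch. HET replicate 1, of the first batch, was within the WT range, at 150249 and 5616. HET replicates 2 and 3 were below all WT arrays, at 140665 and 134705 for cardiomyocyte and 5276 and 4802 for endothelial markers. The part of the batch in these sums was not tested. Of all single genes, 25.0% had KO and WT arrays without overlap, and 1.62% were called by limma. The part of these marker differences in the Gpx3 difference was not tested. In whole ventricle, fewer cells of a type and less RNA per cell cannot be told apart.

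The genes whose signals ran most like Gpx3 over the 9 arrays were Esrrg itself (Pearson r = 0.967), Mkln1os (0.960), Cacna1h, a T-type calcium channel gene (0.951), Gtsf1, a piRNA pathway gene (0.949), and Clip4 (0.949), out of 13027 genes compared. These correlations describe points that share genotype and batch. Of all genes compared, the first 3 of these were above 0.95. Clip4 was nearest to Gpx3 in size, with 1343, 1179 and 1380 for WT, then 1169, 1045 and 1076 for HET, and 862, 774 and 934 for KO. Within the family, r with Gpx3 was 0.63 for Gpx8, 0.59 for Gpx4, 0.46 for Gpx1 and 0.19 for Gpx7. In that order, these values were above those of 90.1%, 87.7%, 79.8% and 61.2% of the genes compared.

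**Figure D4:**
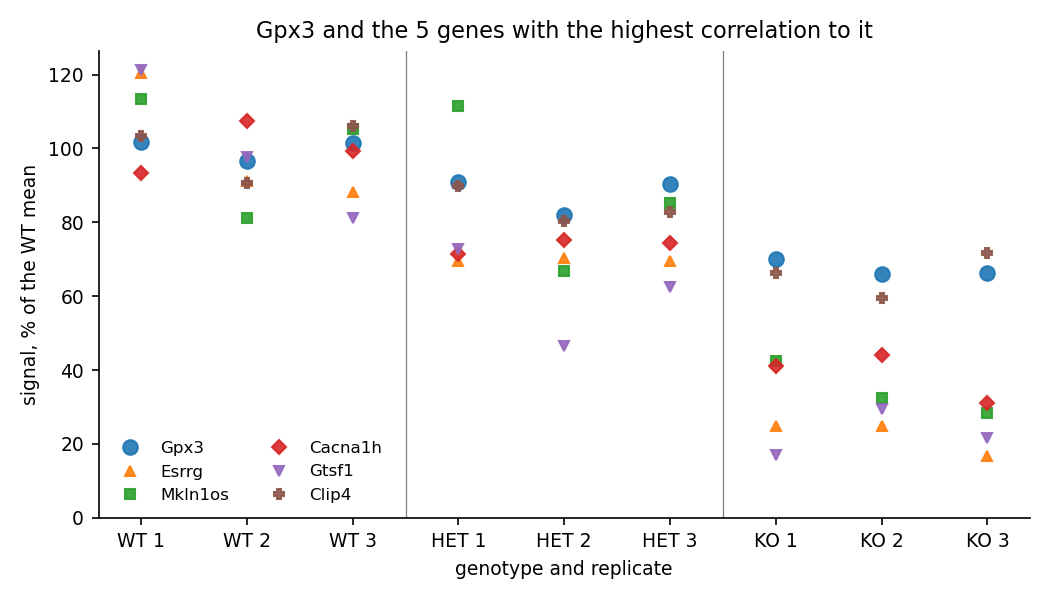
Signals of Gpx3 and the 5 genes most correlated with it (y axis, percent of each gene's WT mean, from 0) on the 9 arrays in order of genotype and replicate number. All 6 genes are lowest in KO, where Gpx3 keeps about the level of Clip4 and lies above Esrrg, Gtsf1, Cacna1h and Mkln1os on every array.

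Genes that supply or accompany the peroxidases were read from 5 lists. Of their 76 tested genes, 3 fell between KO and WT and 0 rose (limma, adjusted p under 0.05), which is 3.95% beside 1.62% of all genes, and 17 had an unadjusted p under 0.05, where 2240 of all 13028 genes did. None was called between HET and WT or KO and HET by limma, with 13 and 2 genes at an unadjusted p under 0.05.

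Glutathione synthesis and recycling held 20 tested genes, 14 of them lower in KO, with a median of -0.17 against -0.01 over all genes. With the batch as a block its median was -0.09 against 0.015 over all genes. Its one fall was Nnt, the mitochondrial transhydrogenase that makes NADPH, with signals of 5306, 5252 and 4913 for WT, then 4861, 5031 and 4805 for HET, and 4503, 3918 and 4235 for KO. All KO arrays of Nnt were below all others, and KO minus WT was -0.29 ± 0.07 (limma, adjusted p = 0.0482). It was -0.31 ± 0.11 with the batch as a block, where it was no longer called. The list had 0 calls in 16 of the 19 alternatives described below, the batch and replicate number blocks among them. Not called were Hagh (-0.38 ± 0.13), which hydrolyses the glutathione thioester made by glyoxalase, the glutaredoxin gene Glrx5 (-0.20 ± 0.07) and the glyoxalase gene Glo1 (-0.29 ± 0.11). With the block these became 0.04, -0.11 and -0.11.

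Glutathione transferases, which join glutathione to other molecules, held 19 tested genes with a median of 0.05 and 11 of them higher in KO. The median was 0.16 with the batch as a block. Gsta4, which acts on the lipid peroxidation product hydroxynonenal, fell from 2135, 2176 and 2038 in WT to 1391, 1515 and 1573 in KO, with HET at 1871, 1434 and 1624. For KO minus WT this made -0.50 ± 0.09 (limma, adjusted p = 0.0277). The batch block reduced it to -0.21 ± 0.14 and ended the call, and HET replicates 2 and 3 were at -0.29 against HET replicate 1. The transferase list had 0 calls in 9 of the 19 alternatives. Gsto1 (-0.37 ± 0.09), Gstm2 (0.30 ± 0.10) and the dim Mgst2 (1.03 ± 0.34) were not called, with limma adjusted p of 0.0595, 0.142 and 0.125.

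Of 15 tested selenoprotein genes outside the family, 8 were lower in KO, with a median of -0.02, or 0.01 after blocking on batch. Selenoh, a nuclear selenoprotein gene, fell from 3636, 3713 and 3447 in WT to 2815, 2817 and 2941 in KO. HET lay between, at 3188, 3070 and 3063, and no pair of genotypes overlapped, as with Gpx3. For KO minus WT this made -0.33 ± 0.07 (limma, adjusted p = 0.0317), or -0.28 ± 0.11 after blocking on batch. The call was lost under that block and under the replicate block, and the list had 0 calls in 11 of the 19 alternatives. The cytosolic thioredoxin reductase gene Txnrd1 was at 0.40 ± 0.11 and the mitochondrial one, Txnrd2, at -0.49 ± 0.14, neither called (limma, adjusted p = 0.0762 and 0.0907). Blocking on batch put them at 0.07 and -0.02. Selenoo, a mitochondrial selenoprotein gene, was at -0.36 ± 0.16 and not called.

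Selenium supply and selenocysteine incorporation gave 0 calls in 14 tested genes by limma, with a median of -0.17, or -0.06 with the batch block. The 1 gene at an unadjusted limma p under 0.05 was Secisbp2l (0.57 ± 0.20). It is a relative of the protein that binds selenocysteine insertion elements. Selenbp1 (-0.17), Trnau1ap (-0.22) and Pstk (0.20), the kinase of the selenocysteine pathway, followed in order of p. Of 14 tested genes of NRF2, the factor that switches on many antioxidant genes, and its targets, Gsta4 was the one called. Their median was -0.07, or -0.06 with the batch block. Txnrd1, the ferritin gene Fth1 (-0.25 ± 0.08) and the thioredoxin gene Txn1 (-0.17 ± 0.07) were not called, and with the block Fth1 and Txn1 were at -0.01 and 0.01.

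**Figure D5:**
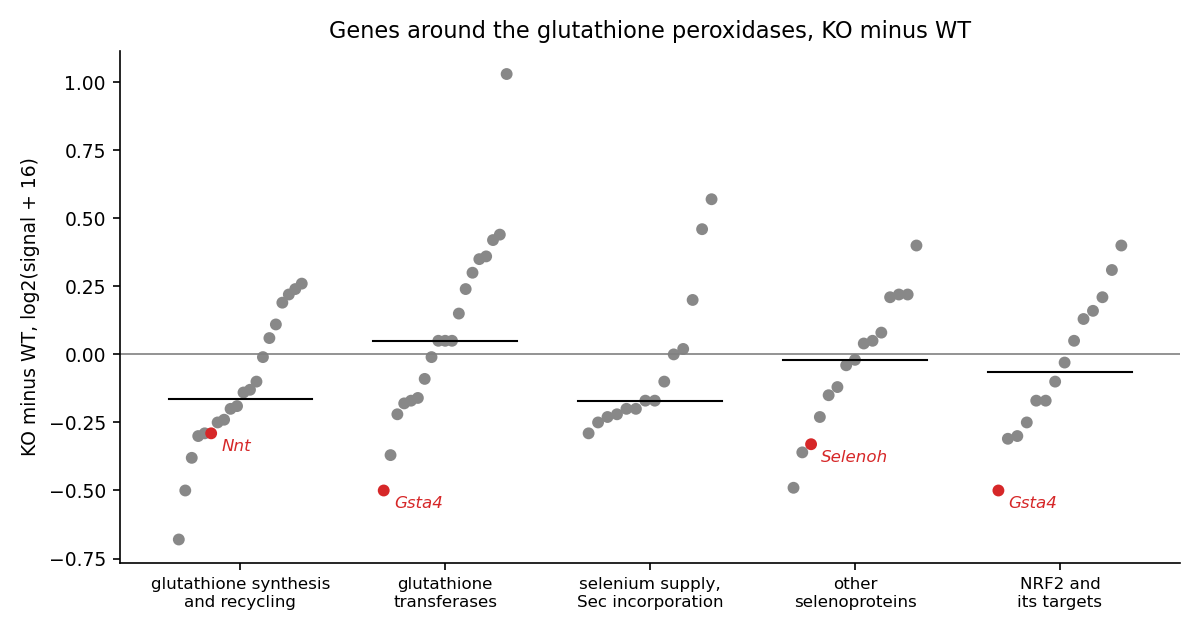
KO minus WT differences on the log2(signal + 16) scale (y axis) of the tested genes of 5 lists around the glutathione peroxidases, 1 point a gene, ordered by size within a list, with the list's median as a line. Red points passed limma at an adjusted p under 0.05: Nnt, Gsta4, which is in both the transferase and NRF2 lists, and Selenoh, all of them lower in KO.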

How the data were processed

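Each deposited value is an intensity on a linear scale, made with MAS5 (version not given in the sources used here), per the submitters' processing notes. Every array's mean without its top and bottom tails was 200.0, so arrays had been scaled. Their medians ran from 36.6 to 45.9, so they did not share one distribution. Whether any other step came before the scaling cannot be told from these values. Of 45037 probe sets other than controls, 34945 name 1 gene, 932 several and 9160 none. Symbols were updated by gene ID through RefSeq (GRCm38.p6) for 34741. Signals became log2(signal + 16). Each gene was read from its brightest probe set, and genes under the 40th percentile of probe set means (signal 21.7) were left out, leaving 13028. Tests were two-sided, from limma 3.58.1 under R 4.3.3 (1 mean per genotype over 9 arrays, eBayes with trend), and p-values were adjusted over all genes by the Benjamini-Hochberg method. The fit was also run on simulated data without a batch difference, and the outcome is not used as support here. Figures were drawn with matplotlib 3.10.9.

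The family, lists and alternatives were chosen with earlier results of these data known. Named genes were every member, the 4 smallest p per list between KO and WT, all called list genes, and the 5 best correlated with Gpx3. Promoter sequences are from RefSeq, with all 8 symbols matched. Alternatives were quantile normalization, one median per array, pseudocounts of 1 and 64, no filter, the mean of probe sets, each probe set alone, 6 arrays, a block for replicate number or spike-in batch, and omission of each array.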

Additional observations from a re-analysis of the deposited data

How the results depend on the processing

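The number of members called between KO and WT was 1 (Gpx3) in 18 of 19 alternatives and 0 with the spike-in batch as a block, where Gpx3 was at -0.49 and the fit has 5 residual degrees of freedom in place of 6. Leaving out each array in turn gave a Gpx3 difference of -0.59 to -0.55. Since the family was chosen on this difference, these counts are no evidence of stability. No member was called between HET and WT or KO and HET under any of the 19. With the replicate number as a block (replicate block) the counts were 1, 0 and 0, as without it. Same-numbered arrays deviated together with r of only -0.04 to 0.05 over genes, so the values show no pairing by number. What the numbers stand for is not settled by this. Over all genes the replicate block gave 127 calls between KO and WT in place of 211, the batch block 1, no filter 85, one median per array 24, averaged probe sets 7, a fit of all probe sets 71 among the brightest, and the 6 arrays alone 773. Leaving out 1 array gave 10 (WT replicate 3) to 840 (HET replicate 1), and 574 between HET and WT without HET replicate 1. The calls of Nnt, Gsta4 and Selenoh were lost more easily: their lists had 0 calls in 16, 9 and 11 of the 19 alternatives. The causes of these changes were not tested.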
